A study of Homo sapiens with 8 samples.

Results

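The metallothioneins and their transcriptional activator were examined in MP38, a *BAP1*-mutant uveal melanoma (UM) cell line, after treatment with histone deacetylase (HDAC) or bromodomain and extra-terminal (BET) protein inhibitors. The 10 genes were taken by name from the count table of 35238 gene symbols: MT1A, MT1E, MT1F, MT1G, MT1H, MT1M, MT1X, MT2A, MT3 and MTF1. Cells were grown for 24 h in 0.1% DMSO (control), or with romidepsin at 40 nM, quisinostat at 40 nM or mivebresib at 1200 nM in medium with the same share of DMSO, and RNA of 2 wells per group was sequenced in bulk (4 groups, 8 libraries). Romidepsin and quisinostat inhibit HDACs, mivebresib binds the bromodomains of BET proteins, and the study asked how the transcriptional responses to these classes differ. All wells came from 1 cell line, so the p-values below measure the spread between wells of that line.

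Metallothioneins are small cytosolic proteins whose many cysteines bind zinc and copper and, on exposure, cadmium. The ubiquitous MT1 and MT2A genes lie together on chromosome 16 beside MT3, which is best known from brain, and they are induced by metals, by oxidative stress and by glucocorticoids. MTF1 is the zinc-sensing transcription factor that binds metal response elements in their promoters, and it also drives SLC30A1, the exporter that moves zinc out of the cell.

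The 9 metallothionein genes spanned 95.1 kb of chromosome 16 (chr16:56589074-56684196, GRCh38, GENCODE 29), from MT3 to MT1X, with 8 genes on the forward strand and MT1G on the reverse strand. Each had 3 exons. MTF1 lay on chromosome 1 (chr1:37809567-37859620, reverse strand) with 11 exons in its principal annotated transcript. RefSeq promoters were at hand for 4 of the 10 genes (MT1H, MT1X, MT2A and MTF1). The 250 bases before the start of 3 of them are shown because metal response elements act in this region, and because MT2A and MT1X rose with mivebresib whereas MT1H was hardly counted in any library. Sequences are from RefSeq (GRCh38.p14), forward strand, 5′ to 3′. Capitals mark matches to the metal response element core, searched as TGCACNC or TGCGCNC on both strands.
MT2A promoter, chr16:56608334-56608583: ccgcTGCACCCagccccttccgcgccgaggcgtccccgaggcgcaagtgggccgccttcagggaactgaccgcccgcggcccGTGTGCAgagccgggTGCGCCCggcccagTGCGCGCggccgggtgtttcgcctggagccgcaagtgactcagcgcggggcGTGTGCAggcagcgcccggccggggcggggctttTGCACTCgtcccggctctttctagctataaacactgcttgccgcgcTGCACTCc
MT1X promoter, chr16:56682220-56682469: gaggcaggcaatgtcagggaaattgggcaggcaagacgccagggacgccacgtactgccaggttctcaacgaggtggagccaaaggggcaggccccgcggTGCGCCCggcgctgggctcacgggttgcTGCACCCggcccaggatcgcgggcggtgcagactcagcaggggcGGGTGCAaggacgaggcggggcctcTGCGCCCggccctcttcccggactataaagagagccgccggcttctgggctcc
MT1H promoter, chr16:56669564-56669813: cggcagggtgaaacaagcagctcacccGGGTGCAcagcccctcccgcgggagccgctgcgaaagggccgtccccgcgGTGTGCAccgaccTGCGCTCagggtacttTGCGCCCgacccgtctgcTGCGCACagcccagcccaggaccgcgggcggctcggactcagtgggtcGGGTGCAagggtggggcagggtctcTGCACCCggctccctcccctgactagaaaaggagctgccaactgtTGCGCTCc

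The MT2A window held 7 such matches (5 on the forward and 2 on the reverse strand), the MT1X window 4 and the MT1H window 8, whereas the MTF1 window held 0. Among 35116 RefSeq promoter windows of the same length, 24.8% held at least 1 match and 0.208% at least 4. MT1H had the most matches of the 3 printed windows and the lowest expression of the 3 genes. An antioxidant response element core, TGACNNNGC, through which the oxidative stress factor NRF2 binds, was matched 1 time in the MT2A window and 1 time in the MT1X window, against 10.9% of all windows with at least 1. These are matches of letters, not measured binding sites. Starts are those of RefSeq. The principal GENCODE 29 transcripts of MT2A and MT1X begin further upstream, at position 56608199 for MT2A, so that the whole MT2A window and the end of the MT1X window lie inside them.

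The coding sequences of the 4 metallothioneins on which the results turn follow, 5′ to 3′ and without the stop codon, from the GENCODE 29 transcripts, with the cysteine codons TGC and TGT in capitals. They are shown because the near identity of these genes bears on how reads can be assigned.
MT2A coding sequence: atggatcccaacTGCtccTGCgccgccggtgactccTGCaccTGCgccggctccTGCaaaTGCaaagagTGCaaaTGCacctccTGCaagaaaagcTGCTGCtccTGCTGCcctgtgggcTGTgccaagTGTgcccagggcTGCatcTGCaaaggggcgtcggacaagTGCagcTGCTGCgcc
MT1E coding sequence: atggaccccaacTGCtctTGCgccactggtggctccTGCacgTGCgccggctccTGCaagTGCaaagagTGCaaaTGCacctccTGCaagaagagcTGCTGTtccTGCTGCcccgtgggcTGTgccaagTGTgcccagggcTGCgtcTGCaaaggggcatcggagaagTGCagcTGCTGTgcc
MT1X coding sequence: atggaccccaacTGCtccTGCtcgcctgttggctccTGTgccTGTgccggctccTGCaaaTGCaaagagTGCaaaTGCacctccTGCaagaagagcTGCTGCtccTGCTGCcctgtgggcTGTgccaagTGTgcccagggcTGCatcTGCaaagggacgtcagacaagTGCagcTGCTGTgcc
MT1F coding sequence: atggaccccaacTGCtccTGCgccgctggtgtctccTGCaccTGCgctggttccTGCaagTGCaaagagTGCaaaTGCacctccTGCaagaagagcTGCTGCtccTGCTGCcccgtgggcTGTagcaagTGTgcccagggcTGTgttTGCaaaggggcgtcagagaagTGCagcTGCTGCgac

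Each of these was 61 codons long, of which 20 (32.8%) were cysteine codons. The coding sequence of MT3 was longer, at 68 codons, also with 20 cysteine codons. Position by position, MT2A was 92.3% identical to MT1E, 92.3% to MT1X and 91.3% to MT1F, and the 28 pairs among the MT1 and MT2A genes ranged from 88.5% (MT1F with MT1X) to 95.1% (MT1G with MT2A). Over whole transcripts the genes were easier to separate. Of all stretches of 31 bases, 12.2% in MT2A, 15.3% in MT1E, 8.33% in MT1F, 18.9% in MT1A and 48.1% in MT1X occurred in a transcript of another gene. For stretches of 150 bases, the read length, the share was 0% in the first 4 of these and 5.65% in MT1X, whose locus overlaps the non-coding gene AC026461.1 on the same strand. How the authors' counting assigned reads that match several genes is not given in the sources used here, so the split of counts between family members carries this uncertainty.

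Depth was even, with 28483235 to 29359024 counts per library. Melanocytic markers (MLANA, PMEL, TYR, TYRP1, DCT, MITF and SOX10) summed to between 3562.6 and 5452 CPM in all libraries. DCT was near 0. Of the 6 that could be tested, 4 were lower with mivebresib, 3 with quisinostat and 1 with romidepsin. Over all tested genes 24.1%, 25.1% and 15.8% were lower. The part of these changes in the metallothionein results was not tested. The summed fibroblast, endothelial and epithelial markers were between 0.602 and 10.9 CPM over all libraries, each highest with quisinostat. Fibroblast markers summed to 1.98 to 2.48 CPM in control cells and 8.44 to 10.9 with quisinostat. Endothelial markers summed to 0.602 to 0.913 and 5.16 to 5.83 CPM, and epithelial markers to 2.45 to 3.76 and 6.72 to 8.29 CPM, in the same order. CD3E and CDH5 were at 0 in every library. The immune markers summed to 61.2 to 83.3 CPM, nearly all from the lysosomal gene CD68. The control libraries stood further apart than those of any drug group (chi-square per degree of freedom 58.1, against 9.52 to 9.79), and this touches each of the short metallothionein genes, as described after the comparisons.

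Of the 10 genes, 6 passed the low-count filter and could be tested: MT2A, MT1E, MT1X, MT1F, MT1A and MTF1. MT1G and MT1M had 0 counts in all 8 libraries. MT1H had 1 count, in quisinostat replicate 1. At a limit of 3 counts, a library without counts allows a level of up to 0.0950 to 0.110 CPM (counts scaled to library size) depending on the library, and expression of these genes was not detectable at this depth.

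MT3 was counted in most libraries but stayed too low for the test. It had 0 and 1 counts in the control libraries, 8 and 3 with romidepsin, 8 and 5 with quisinostat, and 2 and 5 with mivebresib. All 6 drug-treated libraries had more MT3 counts than either control library, but by at most 8 counts, and the difference was not tested.

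To compare levels between genes, CPM was divided by the length of the GENCODE 29 transcript in kb, which for MT2A includes the upstream start and so gives a lower value than the RefSeq start would. In control cells MT2A was the most abundant at 104 ± 32.1 CPM per kb (SD, n = 2), followed by MT1E at 28.0 ± 9.47, MT1X at 8.64 ± 2.70, MT1F at 4.31 ± 1.60, MTF1 at 3.34 ± 0.337 and MT1A at 1.54 ± 0.609. Neighbours in this order did not overlap between MT2A, MT1E, MT1X and MT1F, whereas the MTF1 libraries overlapped the range of MT1F. With mivebresib the first 3 kept their order, at 250 ± 12.6, 56.3 ± 8.32 and 26.5 ± 1.39 CPM per kb (SD, n = 2), but MT1F, at 3.41 ± 0.257, came below MTF1, at 4.18 ± 0.249. With quisinostat MT1F, at 9.06 ± 0.548, came close to MT1X, at 10.2 ± 0.691.

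**Figure D1:**
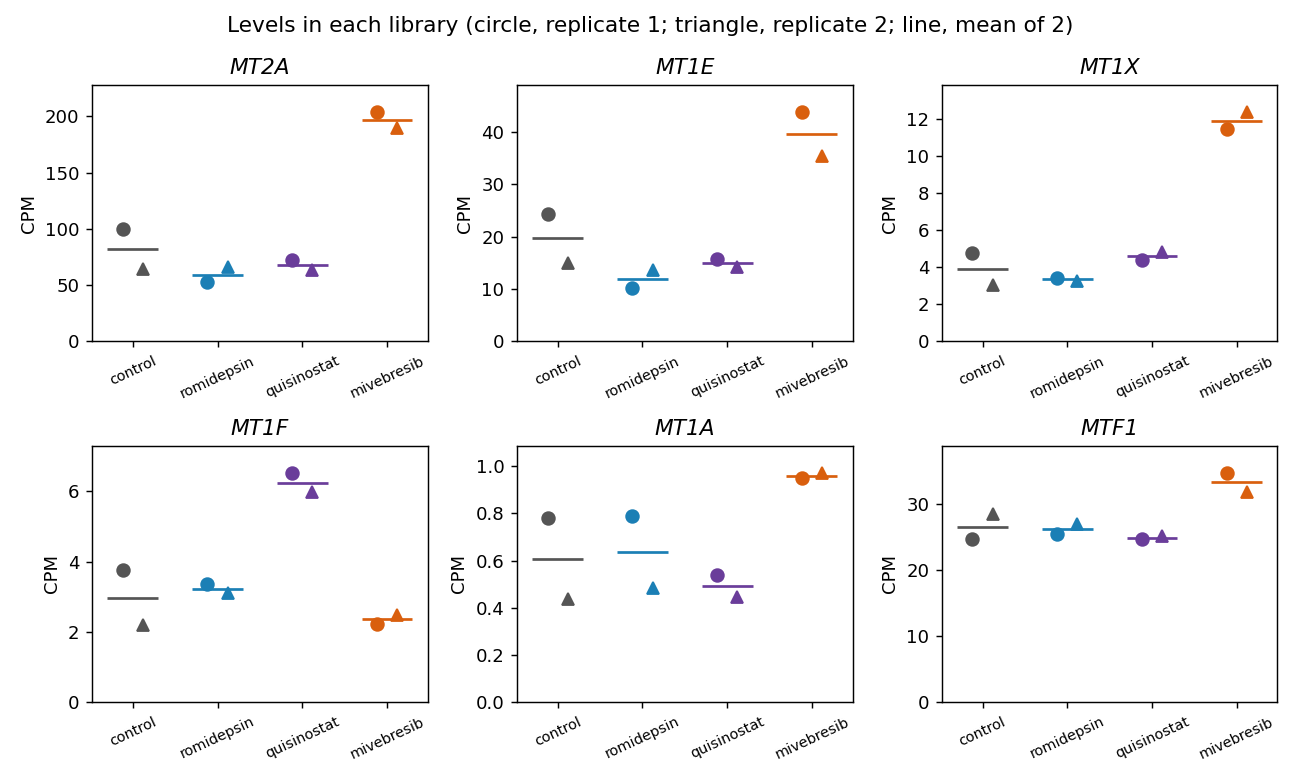
Level of each tested gene in each library in CPM, by treatment group, with a circle for replicate 1, a triangle for replicate 2 and a line at the mean of the 2. The mivebresib libraries are highest for MT2A, MT1E, MT1X, MT1A and MTF1, and the quisinostat libraries are highest for MT1F.

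Mivebresib raised the most abundant metallothioneins. MT2A, MT1E and MT1X were 2.39-fold, 2.01-fold and 3.06-fold higher than in control cells, MTF1 was 1.25-fold higher, and MT1F was not called. Of the 6 tested genes, 4 rose and 0 fell at an adjusted p below 0.05, where 22.2% of all 15085 tested genes rose and 24.1% fell. The median log2 FC over the 6 was 0.83, beside 0.01 over all tested genes. With the stricter threshold of the study, which also asks for a log2 FC beyond 1.5, MT1X was the 1 member called, against 8.32% of all genes in either direction. MT1X fell short of this fold without control replicate 2 (log2 FC 1.33). On the authors' quantile-normalized table its value was 1.35, in units rescaled to approximate log2. Because these are bulk samples, a change in RNA per cell and a change in the share of cells that express a gene cannot be told apart.

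MT2A had 2820 and 1757 counts in the control libraries (99.9 and 64.2 CPM) and 5562 and 5268 with mivebresib (203 and 189 CPM). Both treated libraries lay well above both controls. The log2 FC was 1.26 (SE 0.19, 95% confidence interval 0.81 to 1.70, edgeR adjusted p = 0.000968).

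MT1E, the second most abundant member, had 690 and 411 counts in control cells (24.4 and 15.0 CPM) and 1197 and 987 with mivebresib (43.8 and 35.5 CPM). The groups did not overlap. Its log2 FC was 1.01 (SE 0.22, edgeR adjusted p = 0.00600). Without mivebresib replicate 1 the log2 FC was 0.85 and the adjusted p rose to 0.0506.

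MT1X, another ubiquitous MT1 gene, had 134 and 83 counts in control cells (4.75 and 3.03 CPM) and 314 and 344 with mivebresib (11.5 and 12.4 CPM). This was the largest rise among the members, and the treated libraries differed from each other by less than the controls did. The log2 FC was 1.61 (SE 0.19, 95% confidence interval 1.18 to 2.05, edgeR adjusted p = 0.000227).

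MT1F departed from the other members. It had 106 and 60 counts in control cells (3.76 and 2.19 CPM) and 61 and 69 with mivebresib (2.23 and 2.48 CPM), so the treated libraries lay within the range of the controls. The log2 FC was -0.34 (95% confidence interval -0.91 to 0.23, edgeR adjusted p = 0.301). Its interval ends below the lower bound for MT1E (0.50), MT2A (0.81) and MT1X (1.18), although the difference between genes was not itself tested. Without control replicate 2 its log2 FC was -0.67 (edgeR adjusted p = 0.0188), and without control replicate 1 it was 0.13.

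MT1A had 22 and 12 counts in control cells and 26 and 27 with mivebresib. The treated libraries were higher than both controls, but at these counts the log2 FC of 0.65 was not past the threshold (95% confidence interval -0.21 to 1.51, edgeR adjusted p = 0.191).

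MTF1, the activator, had 697 and 780 counts in control cells (24.7 and 28.5 CPM) and 950 and 888 with mivebresib (34.7 and 31.9 CPM). The groups did not overlap, but the change was small, with a log2 FC of 0.33 (SE 0.10, edgeR adjusted p = 0.0228). The call was lost without control replicate 1 (log2 FC 0.25, adjusted p = 0.0584) and without mivebresib replicate 1 (log2 FC 0.26, adjusted p = 0.129).

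**Figure D2:**
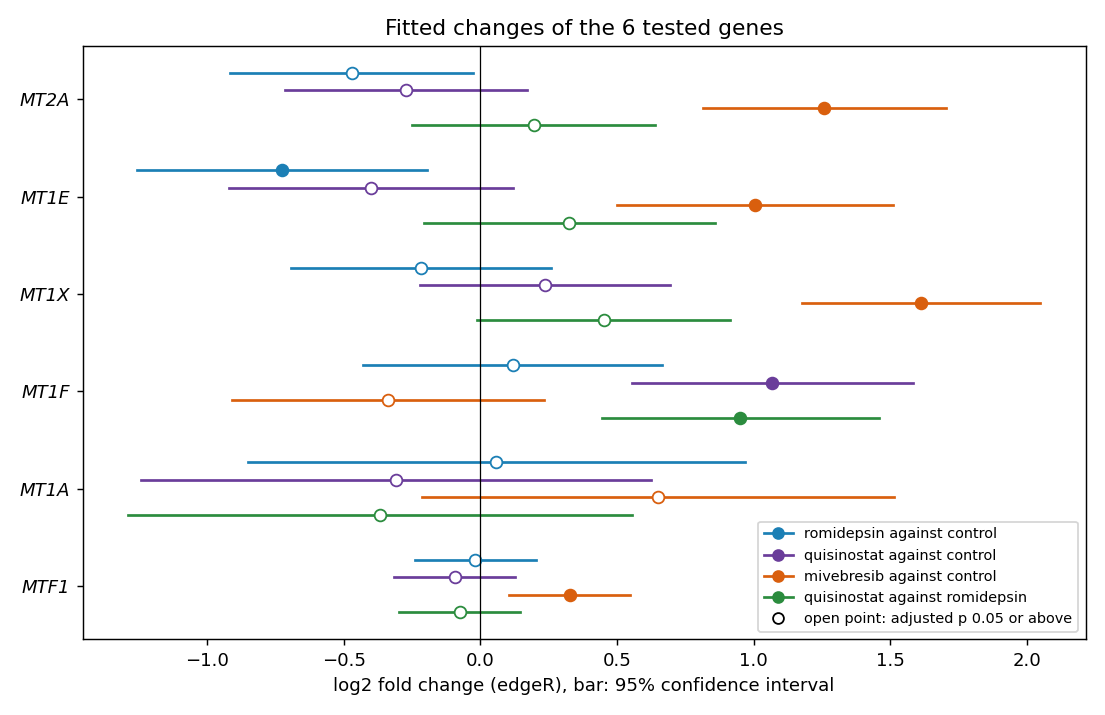
Fitted log2 fold change of the 6 tested genes in the 4 comparisons, with 95% confidence intervals. Filled points passed an adjusted p of 0.05. MT2A, MT1E, MT1X and MTF1 are filled for mivebresib, MT1E for romidepsin, and MT1F for quisinostat against both control and romidepsin.

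With both HDAC inhibitors the fitted log2 FC of MT2A and MT1E, the most abundant members, was negative. With romidepsin 1 of the 6 tested genes was called, MT1E, which was lower, where 15.8% of all tested genes were lower and 15.2% higher. With quisinostat 1 of the 6 was called, MT1F, which was higher, where 28.0% of all tested genes were higher and 25.1% lower. Both counts lie near what the background shares give and say little about the family. No member passed the stricter threshold with either drug, against 4.08% of all genes in either direction with romidepsin and 12.2% with quisinostat.

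MT2A had 1535 and 1909 counts with romidepsin (52.7 and 65.7 CPM) and 2287 and 1989 with quisinostat (72.4 and 63.3 CPM). In CPM, romidepsin replicate 2 and quisinostat replicate 1 lay within the control range of 64.2 to 99.9, and the other 2 libraries lay below it. The log2 FC was -0.47 with romidepsin (95% confidence interval -0.92 to -0.03, edgeR adjusted p = 0.0994) and -0.27 with quisinostat (-0.72 to 0.17, adjusted p = 0.263). Without control replicate 2 both passed the threshold, at log2 FC -0.75 (adjusted p = 0.000946) and -0.56 (adjusted p = 0.00308). Without control replicate 1 they were -0.09 and 0.06, so the direction with quisinostat depended on which control library was used.

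MT1E had 299 and 395 counts with romidepsin (10.3 and 13.6 CPM), both below the lower control library. Its log2 FC was -0.73 (SE 0.23, edgeR adjusted p = 0.0444), close to the threshold. Of 8 fits that each left out 1 library, 1 called it, the fit without control replicate 2 (log2 FC -1.03, adjusted p = 0.000780). In the other 7, the log2 FC ran as far as -0.31 without control replicate 1 and -0.94 without romidepsin replicate 2, and the adjusted p lay between 0.0647 and 0.248. With quisinostat MT1E had 496 and 446 counts (15.7 and 14.2 CPM), with a log2 FC of -0.40 (adjusted p = 0.168) that was called lower only without control replicate 2 (-0.71, adjusted p = 0.00358).

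MT1F was the member that separated the HDAC inhibitors. It had 98 and 90 counts with romidepsin (3.37 and 3.10 CPM), within the control range, and 206 and 188 with quisinostat (6.52 and 5.99 CPM), above all 6 other libraries. Against control the log2 FC was 0.12 with romidepsin (95% confidence interval -0.43 to 0.66, edgeR adjusted p = 0.735) and 1.07 with quisinostat (0.55 to 1.58, adjusted p = 0.00409). The rise with quisinostat was called in all 8 fits that left out 1 library, with log2 FC between 0.74 (without control replicate 2) and 1.49 (without control replicate 1).

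MT1X had 100 and 95 counts with romidepsin (3.43 and 3.27 CPM) and 138 and 151 with quisinostat (4.37 and 4.81 CPM). The romidepsin libraries and quisinostat replicate 1 lay within the control range of 3.03 to 4.75 CPM and quisinostat replicate 2 just above it. Neither change was called, with log2 FC -0.22 (adjusted p = 0.460) and 0.24 (adjusted p = 0.348) by edgeR. Without control replicate 1 the value for quisinostat was 0.58 (adjusted p = 0.0238), and without control replicate 2 the value for romidepsin was -0.50 (adjusted p = 0.0397).

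MT1A had 23 and 14 counts with romidepsin and 17 and 14 with quisinostat, all within or next to the control range of 12 to 22, and its intervals were wide. MTF1 had 741 and 786 counts with romidepsin and 780 and 790 with quisinostat. Its log2 FC was -0.02 with romidepsin (95% confidence interval -0.24 to 0.20) and -0.09 with quisinostat (-0.31 to 0.13), neither of them called by edgeR (adjusted p = 0.904 and 0.444).

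Romidepsin, a cyclic depsipeptide, and quisinostat, a hydroxamate, were given at the same dose and time and could be compared directly, as 1 pair. The same dose need not have the same strength. In the study's viability tests of MP38, romidepsin was more potent than quisinostat. The part of potency in the differences below was not tested. At an adjusted p below 0.05, 1 of the 6 genes was higher with quisinostat (MT1F) and 0 were lower, where 21.0% of all tested genes were higher and 14.6% lower. With a log2 FC beyond 1.5 as well, 0 of the 6 and 5.59% of all genes were called. MT1F was 1.93-fold higher with quisinostat, a log2 FC of 0.95 (SE 0.22, 95% confidence interval 0.44 to 1.46, edgeR adjusted p = 0.0114). The value held between 0.86 and 1.01 when single libraries were left out, but the adjusted p rose to between 0.0555 and 0.0848 without any 1 of the 4 libraries compared. For the other genes no difference was called. The log2 FC was 0.45 for MT1X (95% confidence interval -0.01 to 0.92), 0.33 for MT1E (-0.21 to 0.86), 0.20 for MT2A (-0.25 to 0.64), -0.08 for MTF1 (-0.30 to 0.15) and -0.37 for MT1A (-1.29 to 0.55), and the intervals reached from 0.409 times the romidepsin level in MT1A to 1.89 times in MT1X. Mivebresib was given at another dose and was not compared with them directly.

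The make-up of the family was then described from counts, without a test. The 8 MT1 and MT2A genes together had 134 and 84.9 CPM in the control libraries, 70.6 and 86.2 with romidepsin, 99.6 and 88.8 with quisinostat, and 262 and 241 with mivebresib. The mean with mivebresib was 2.30 times the control mean, and both mivebresib libraries were above all 6 others. MT2A gave most of the sum in each library, with 71.3% to 78.7%. Adding the counted relatives of the family changed the sums little, for example to 262 and 241 CPM with mivebresib.

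Relative to MT2A in the same library the control replicates were alike although their levels differed. MT1X had 4.75 and 4.72 counts per 100 MT2A counts in the control libraries, MT1E 24.5 and 23.4, and MT1F 3.76 and 3.41. The ratio of MT1F to MT2A moved most between groups. It was 6.38 and 4.71 per 100 with romidepsin, 9.01 and 9.45 with quisinostat, and 1.10 and 1.31 with mivebresib. These ranges did not overlap between any of the groups, and the mean ratio was 2.57 times the control mean with quisinostat and 0.335 times with mivebresib. The ratio of MT1X to MT2A was 6.51 and 4.98 with romidepsin, 6.03 and 7.59 with quisinostat and 5.65 and 6.53 with mivebresib, above both controls in all 6 treated libraries. A ratio between genes shows unequal change and not which of the genes moved.

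**Figure D3:**
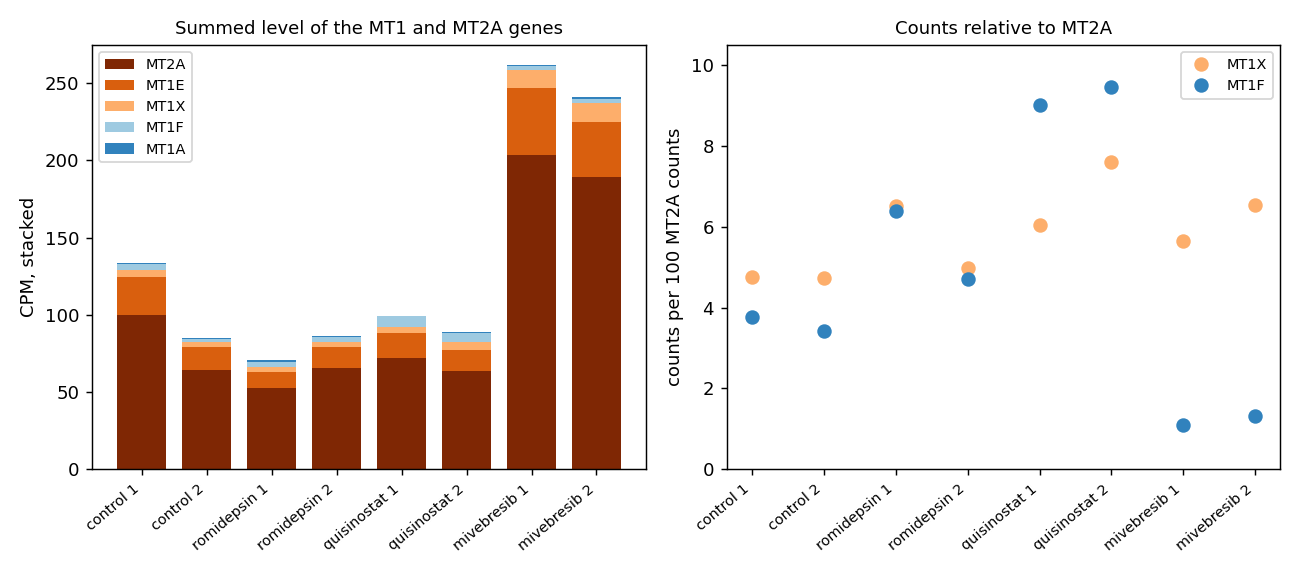
Left, summed CPM of the MT1 and MT2A genes in each library, stacked by gene, and right, counts of MT1X and MT1F per 100 MT2A counts in each library. The sums with mivebresib, 262 and 241 CPM, exceed the others, while MT1F falls to 1.10 and 1.31 per 100 MT2A counts there and reaches 9.01 and 9.45 with quisinostat.

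The 5 tested metallothioneins were all higher in control replicate 1 than in control replicate 2, by 1.56-fold (MT2A and MT1X), 1.63-fold (MT1E), 1.71-fold (MT1F) and 1.75-fold (MT1A). MTF1 went the other way, with 24.7 against 28.5 CPM. This difference moved with transcript length over all genes. The median log2 ratio of control replicate 1 to replicate 2 was 0.45 for the 410 tested genes with an annotated transcript of up to 800 nt and -0.20 for the 2310 genes over 6000 nt, beside -0.01 over all tested genes. The metallothionein transcripts were 396 to 786 nt long and that of MTF1 7972 nt. The 5 metallothioneins lay above the median of the short genes, at log2 ratios from 0.64 (MT2A and MT1X) to 0.80 (MT1A). The upper quartile of the short genes was 0.64. In the drug groups the median for the short genes was -0.18 with romidepsin, 0.21 with quisinostat and 0.05 with mivebresib.

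Between groups the same short genes had a median log2 FC of -0.27 with romidepsin, -0.16 with quisinostat and -0.10 with mivebresib. Which control library was used set the sign of the last 2 medians. The 3 medians were -0.09, 0.04 and 0.07 without control replicate 1, and -0.50, -0.35 and -0.34 without control replicate 2. For the 74 shortest of these genes, a length range that holds MT1X and MT1A, the median with mivebresib was 0.12. In an edgeR fit that corrected each library for transcript length, which was added after the pattern was seen, the 4 mivebresib calls remained, with log2 FC 1.43 for MT2A, 1.17 for MT1E, 1.74 for MT1X and 0.31 for MTF1. MT1F with quisinostat was 1.21, and MT1E with romidepsin was smaller, at -0.46, and still called (adjusted p = 0.0320). MT1X with romidepsin changed sign, to 0.10, and was not called in either fit. How far the control difference comes from RNA quality or library preparation was not tested.

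**Figure D4:**
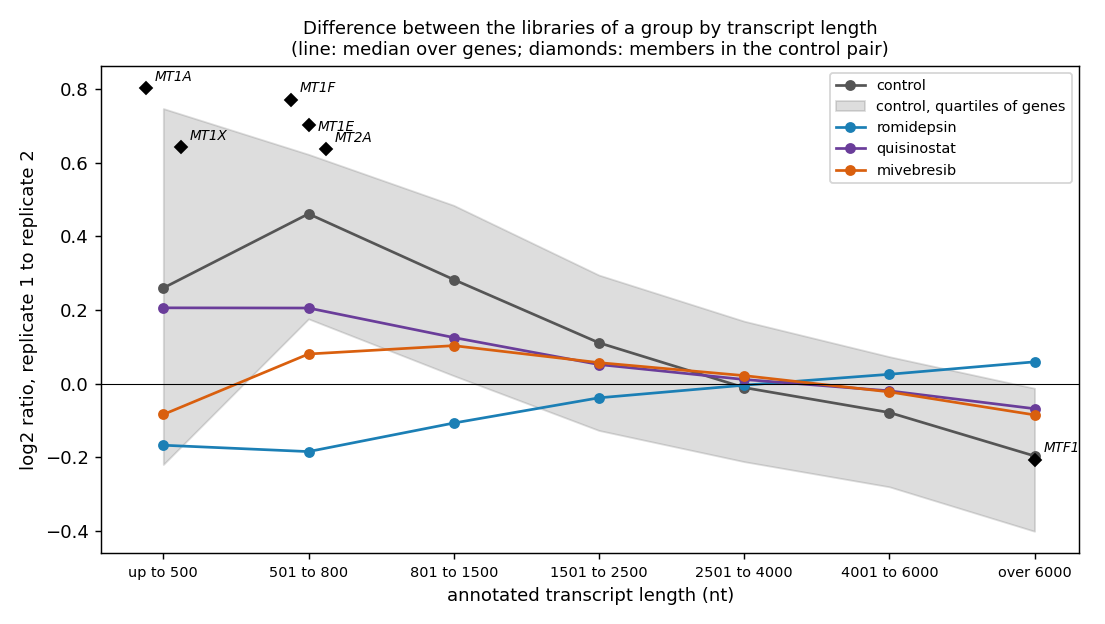
Median log2 ratio of replicate 1 to replicate 2 over tested genes in bins of annotated transcript length, for each group, with the quartiles of genes shaded for the control pair and diamonds for the 6 tested members in that pair. The control line falls with length to -0.20 over 6000 nt, and the 5 metallothioneins lie between 0.64 and 0.80.

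The other genes of metal and redox handling were counted from lists. The NRF2 list holds the oxidative stress factor NFE2L2 (NRF2), its repressor KEAP1 and genes known as its targets. With mivebresib 11 of 13 rose and 0 fell, where 22.2% of all tested genes rose and 24.1% fell, with a median log2 FC of 0.79, beside 0.01 over all tested genes. TXNRD1, a thioredoxin reductase, had 851 and 868 CPM in control cells and 2820 and 2683 with mivebresib, a log2 FC of 1.68 (edgeR adjusted p = 5.81e-06). GCLC, the catalytic subunit of the enzyme that starts glutathione synthesis, had 36.5 and 32.8 CPM and 86.8 and 86.0 with mivebresib, a log2 FC of 1.32 (adjusted p = 9.12e-06). SRXN1, which repairs oxidized peroxiredoxins, had a log2 FC of 1.98 (adjusted p = 1.46e-05), with 241 and 190 CPM against 922 and 779.8 CPM. HMOX1, the heme oxygenase that many metals also induce, had 52.3 and 43.9 CPM in control cells and 78.7 and 67.9 CPM with mivebresib, a log2 FC of 0.61 (adjusted p = 0.00358). Without control replicate 1, 12 of the 13 rose, and without control replicate 2, 11 did.

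With romidepsin 1 gene of the same list rose and 3 fell, where 15.2% of all tested genes rose and 15.8% fell. With quisinostat 1 rose and 6 fell, where 28.0% of all tested genes rose and 25.1% fell. The romidepsin count turned to 4 higher and 2 lower without control replicate 1 and was 1 and 5 without control replicate 2. The quisinostat count was 2 and 6, and 2 and 7, in the same fits. KEAP1 fell with both, from 44.4 and 40.7 CPM to 19.2 and 21.7 CPM with romidepsin (log2 FC -1.05, adjusted p = 0.000148) and to 18.6 and 18.9 CPM with quisinostat (-1.18, adjusted p = 1.78e-05). OSGIN1, an oxidative stress response gene, also fell with both, with log2 FC -0.82 (adjusted p = 0.00255) and -1.33 (adjusted p = 8.52e-05). The 1 gene higher with romidepsin was TXNRD1, by 0.50 on the log2 scale (adjusted p = 0.00468). NFE2L2 itself was lower with quisinostat (-0.48, adjusted p = 0.00148). HMOX1 was not called with either, at log2 FC 0.21 (adjusted p = 0.226) and 0.14 (adjusted p = 0.349). Between quisinostat and romidepsin, 0 of 13 were higher and 3 lower with quisinostat, namely NFE2L2 (-0.46), OSGIN1 (-0.51) and TXNRD1 (-0.29).

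The zinc exporters (the SLC30 family) had 4 higher and 0 lower of 9 tested genes with each drug, where 15.2% of all tested genes were higher with romidepsin, 28.0% with quisinostat and 22.2% with mivebresib. SLC30A1, the MTF1-driven exporter of the plasma membrane, had 190 and 275 CPM in control cells, 345 and 308 with romidepsin, 283 and 314 with quisinostat, and 350 and 359 with mivebresib. All 6 treated libraries were above both controls, and in this gene control replicate 1 was the lower of the pair. The log2 FC was 0.49 with romidepsin (edgeR adjusted p = 0.0461), 0.36 with quisinostat (adjusted p = 0.0849) and 0.61 with mivebresib (adjusted p = 0.0133). SLC30A4, which loads zinc into vesicles, rose with mivebresib from 18.8 and 20.6 CPM to 38.0 and 43.1 CPM (log2 FC 1.04, adjusted p = 0.000336). SLC30A4 was also higher with romidepsin, by log2 FC 0.44 (edgeR adjusted p = 0.0360), and with quisinostat, by 0.47 (adjusted p = 0.0160). SLC30A3, a vesicular zinc transporter of neurons, rose from 8 and 15 counts to 41 and 26 with romidepsin, 135 and 120 with quisinostat and 45 and 61 with mivebresib. SLC30A8, known from pancreatic beta cells, had 4 and 2 counts in control cells, 16 and 14 with romidepsin (adjusted p = 0.00955) and 20 and 18 with quisinostat (adjusted p = 0.00245). SLC30A9 rose with quisinostat and mivebresib, by 0.30 on the log2 scale with each (adjusted p = 0.00804 and 0.00960). Without control replicate 1 the family had 1 higher and 1 lower with romidepsin, 4 and 3 with quisinostat, and 4 and 0 with mivebresib. Without control replicate 2 it had 6 higher and 0 lower with each drug.

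Among 12 tested zinc importers (the SLC39 family) 1 was higher and 0 lower with romidepsin, 2 higher and 5 lower with quisinostat, and 2 higher and 2 lower with mivebresib. Over all tested genes the shares higher and lower were 15.2% and 15.8%, 28.0% and 25.1%, and 22.2% and 24.1%. The counts depended on the control library. Without control replicate 1 they were 1 and 4, 2 and 7, and 3 and 3, and without control replicate 2 they were 3 and 1, 3 and 3, and 6 and 2. SLC39A8, which carries zinc and manganese into the cell, rose with all 3 drugs, by log2 FC 0.83 with romidepsin (adjusted p = 0.00133), 1.83 with quisinostat (adjusted p = 6.36e-06) and 0.53 with mivebresib (adjusted p = 0.00649). SLC39A1, an importer of the plasma membrane, had 189 and 248 CPM in control cells and 132 and 128 with mivebresib (log2 FC -0.75, adjusted p = 0.00142). SLC39A7, which releases zinc from the endoplasmic reticulum, fell with mivebresib by 0.78 on the log2 scale (adjusted p = 0.00373). Both were also lower with quisinostat, SLC39A1 by log2 FC -0.45 (edgeR adjusted p = 0.0138) and SLC39A7 by -0.52 (adjusted p = 0.0205). With quisinostat SLC39A2 had 40 and 24 counts against 4 and 1 in control cells (adjusted p = 0.00102), and SLC39A13 fell (log2 FC -0.44, adjusted p = 0.0106).

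For 16 tested genes of copper handling, 4 were higher and 2 lower with romidepsin, 5 and 2 with quisinostat, and 5 and 0 with mivebresib, beside the same shares over all tested genes (15.2% and 15.8%, 28.0% and 25.1%, and 22.2% and 24.1%). The counts were 2 and 2, 7 and 3, and 7 and 1 without control replicate 1, and 5 and 5, 6 and 4, and 8 and 2 without control replicate 2. CCS, the copper chaperone of superoxide dismutase, rose with mivebresib from 9.25 and 8.26 CPM to 18.3 and 18.7 CPM (log2 FC 1.08, adjusted p = 0.000107). It also rose with quisinostat (0.43, edgeR adjusted p = 0.0119). SLC31A2, a copper transporter of endosomes and lysosomes, rose with all 3 drugs, by log2 FC 0.47 with romidepsin (adjusted p = 0.00682), 0.62 with quisinostat (adjusted p = 0.000706) and 0.50 with mivebresib (adjusted p = 0.00275). ATP7A, the copper pump mutated in Menkes disease, rose with romidepsin (0.93, adjusted p = 0.00358) and quisinostat (0.95, adjusted p = 0.00134). The mitochondrial factor COX19 rose with mivebresib (0.55, edgeR adjusted p = 0.00732). It fell with quisinostat (-0.68, adjusted p = 0.00288) and romidepsin (-0.46, adjusted p = 0.0316). SCO2, another mitochondrial copper protein, also rose with mivebresib (0.46, adjusted p = 0.0185). SCO2 fell with romidepsin (-0.54, adjusted p = 0.0171) and quisinostat (-0.50, adjusted p = 0.0121).

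**Figure D5:**
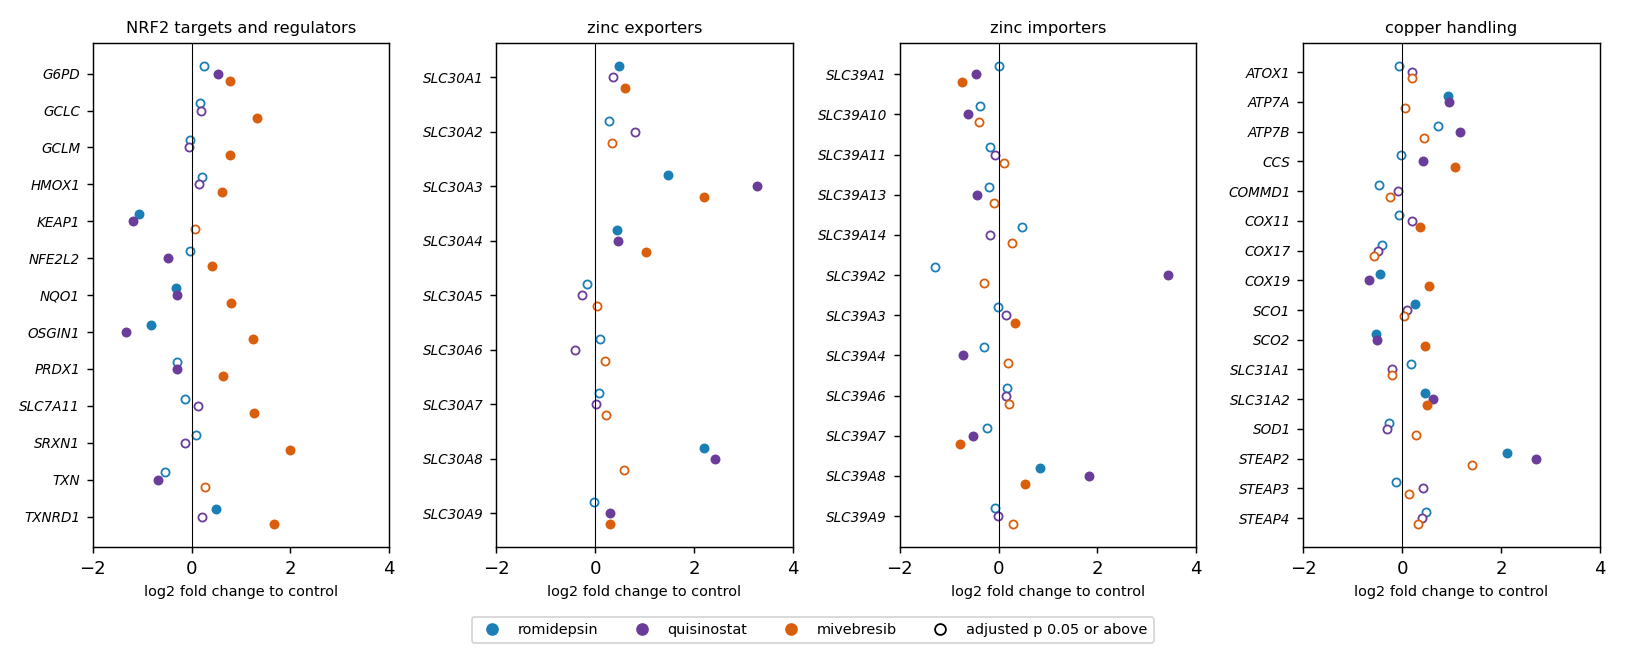
Log2 fold change to control of the tested genes of 4 lists, by drug, with filled points for an adjusted p below 0.05. With mivebresib 11 of 13 genes of the NRF2 list are filled and to the right of 0, and with each drug 4 of 9 zinc exporters are.

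The genes that flank the metallothionein cluster on chromosome 16 were counted in the same way. Of 8 tested neighbours, 2 were higher and 0 lower with romidepsin, 3 and 2 with quisinostat, and 4 and 2 with mivebresib. Over all tested genes 15.2% were higher and 15.8% lower with romidepsin, 28.0% and 25.1% with quisinostat, and 22.2% and 24.1% with mivebresib. The romidepsin count was 1 and 0 and the quisinostat count 2 and 1 without control replicate 1. Without control replicate 2 the quisinostat count was again 2 and 1. With mivebresib BBS2, a ciliary gene next to MT4 and MT3, rose by log2 FC 0.96 (adjusted p = 9.27e-05) and HERPUD1, an endoplasmic reticulum stress gene, by 0.50 (adjusted p = 0.00294). GNAO1, a G protein subunit of neurons, rose with each drug. Its log2 FC was 1.90 with romidepsin (edgeR adjusted p = 0.000605) and 2.58 with quisinostat (adjusted p = 3.17e-05), drugs with which MT2A was not called. With mivebresib, where MT2A rose, the log2 FC of GNAO1 was 1.04 (adjusted p = 0.00703). NUP93, a nuclear pore gene, rose with romidepsin by 0.26 (adjusted p = 0.0414), and BBS2 with quisinostat by 0.32 (adjusted p = 0.0205). HERPUD1 was lower with quisinostat (log2 FC -0.27, edgeR adjusted p = 0.0454).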

How the data were processed

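MP38 cells (4 groups, 2 libraries each) were grouped from the labels. The authors made 3 tables with BioJupies. The counts per gene symbol were deposited without normalization. The deposited log10 table equals log10(CPM + 1) of these counts, and the authors' quantile-normalized score has no scale named in the sources used here. For limma the score was multiplied by a constant to approximate log2 units. Differences given from it are therefore not log2 FC proper. The submitters' processing notes name hg38. The aligner, counter, annotation and use of strand are not given in the sources used here, and the library was strand-specific per the labels.

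The main test was edgeR 4.0.16 under R 4.3.3 (TMM, filterByExpr by group, quasi-likelihood test, all 8 libraries, Benjamini-Hochberg over 15085 genes). A gene was called at an adjusted p below 0.05, and the study's log2 FC beyond 1.5 was a second rule. CPM used TMM-scaled library sizes. Results were recomputed with DESeq2 1.42.0, limma-voom and limma 3.58.1 on the score table, other scalings and filters, the 4 libraries of a comparison, a replicate block, and each library left out in turn. A correction for transcript length was added after the data were seen. Scripts were tested on simulated data.

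The 10 genes and the lists were chosen with earlier results of these data known. All members are named. From each list up to 3 genes per comparison with the smallest p among those called are named, plus SLC30A1 and HMOX1. Values of 1 gene that this rule names are not reported here. Transcripts, coordinates and lengths (known for 95.1% of tested genes) came from GENCODE 29, from the principal coding transcript and then the longest. No replicate pair agreed within sampling noise (chi-square over genes with at least 20 counts). Counting floors cover counting error only, and 2 libraries per group set the precision.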

Additional observations from a re-analysis of the deposited data

How the results depend on the processing

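The 4 mivebresib calls were kept by most alternatives. MT1X passed in all 11 alternative fits and all 8 fits without 1 library. MT2A was lost on the authors' quantile-normalized table (0.79 in rescaled units, limma adjusted p = 0.172), where MT1F with quisinostat was also lost (0.57, adjusted p = 0.249). MTF1 was lost there and with only the 4 libraries of the comparison. MT1E with romidepsin was kept in 5 of 11 alternatives.

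The number of members called with romidepsin, 1, became 0 under limma-voom, the quantile table, library size alone, upper-quartile factors, a mean CPM of at least 5 and only the 4 libraries. With quisinostat and for quisinostat against romidepsin, 1 became 0 at a mean CPM of at least 5, which drops MT1A and MT1F, and the second also on the quantile table, where mivebresib had 2 (MT1E and MT1X). With quisinostat the quantile table also gave 1 call, but of MT1A, lower (-1.19, adjusted p = 0.0496), in place of MT1F. Asking also for a log2 FC beyond 1.5 left 1 for mivebresib and 0 for each other comparison. Without 1 library the number ran from 0 to 3 for romidepsin, 1 to 3 for quisinostat, 2 to 5 for mivebresib and 0 to 2 for quisinostat against romidepsin, and the highest values, 3, 3 and 5, came without control replicate 2.

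Values that changed sign were not called with all 8 libraries in the fit. On the quantile table they were MT1A (-0.49), MT1F (-0.20) and MTF1 (0.27) with romidepsin, MT1X with quisinostat (-0.33) and MT1E for quisinostat against romidepsin (-0.27). MTF1 changed sign with romidepsin and quisinostat under library size alone (0.055 and 0.11, and 0.053 between them), upper-quartile factors (0.066 and 0.037) and a mean CPM of at least 5 (0.041 and 0.0021). MT1X with romidepsin became 0.10 with the transcript-length correction. Without 1 library, romidepsin values ran from -0.34 to 0.56 for MT1A, -0.22 to 0.58 for MT1F, -0.50 to 0.17 for MT1X and -0.095 to 0.089 for MTF1. Quisinostat values ran from -0.66 to 0.15 for MT1A, -0.049 to 0.58 for MT1X, -0.56 to 0.063 for MT2A and -0.21 to 0.013 for MTF1, MT1F with mivebresib from -0.67 to 0.13, and MT1A for quisinostat against romidepsin from -0.68 to 0.029. The cause was not tested.

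Replicate numbers did not pair the wells (correlations of same-numbered deviations from -0.11 to 0.12). A fit with the replicate number as a block changed no member call, with 1, 1, 4 and 1 members in the 4 comparisons, and called 4539, 7954 and 6916 genes with romidepsin, quisinostat and mivebresib against 4670, 8024 and 6970. Over all genes the quantile table called 1369, 3093 and 3127, and romidepsin had 2428 calls with only its 4 libraries and 2201 to 6644 without 1 library. Library size alone moved the median log2 FC of all genes with quisinostat to 0.20. With 2 libraries per group, a fit without 1 library assumes that the lone library varies like the other groups.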

Other observations

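The genes whose pattern over the 8 libraries was closest to MT2A, by root mean square difference of log2 CPM centred on the mean of each gene, were SLC25A1, the mitochondrial citrate carrier (0.11), CIRBP, a cold-inducible RNA-binding protein (0.13), and OCEL1 (0.14), of 9679 candidates with a mean log2 CPM of at least 3. SLC25A1 had 106 and 77.0 CPM in the control libraries, 56.7 and 65.8 with romidepsin, 75.9 and 74.4 with quisinostat and 219.7 and 176 with mivebresib. CIRBP had 104 and 85.4, 65.7 and 69.1, 81.2 and 75.1, and 203 and 220.2 CPM in the same order. Both were also higher in control replicate 1 than in replicate 2, which follows from the choice, since the control libraries were part of the match. Their annotated transcripts were 1648 and 1509 nt long.

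Of 11 listed relatives of the family, 10 were in the table and 0 were tested. MT1JP, a pseudogene of the cluster, had 3 and 1 counts in control cells, 1 and 1 with romidepsin, 0 and 1 with quisinostat, and 8 and 13 with mivebresib. MT1XP1 had 2 and 0, 5 and 6, 1 and 7, and 0 and 1 counts. MT1B, MT1L, MT4 and 5 others had 0 counts in every library.

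Genes of the response to glucocorticoids, another known inducer of metallothioneins, were counted too. Of 8 tested, 4 were higher and 0 lower with romidepsin, 2 and 1 with quisinostat, and 2 and 2 with mivebresib, where 15.2% and 15.8%, 28.0% and 25.1%, and 22.2% and 24.1% of all tested genes were. Without control replicate 2 the mivebresib count was 1 and 2, and without control replicate 1 the romidepsin count was 4 and 1. FKBP5 rose with mivebresib (log2 FC 0.94, adjusted p = 0.000106) and romidepsin (0.63, adjusted p = 0.00209), while SGK1 fell with mivebresib (-0.90, adjusted p = 6.62e-05) and rose with romidepsin (0.53, adjusted p = 0.00224), all by edgeR. KLF9 rose with quisinostat (1.03, edgeR adjusted p = 1.62e-05) and romidepsin (0.40, adjusted p = 0.00580). DUSP1 rose with romidepsin (1.01, edgeR adjusted p = 0.000764) and mivebresib (0.36, adjusted p = 0.0490), and TSC22D3 with quisinostat (0.73, adjusted p = 0.00102). NR3C1 was lower with quisinostat (-0.46, edgeR adjusted p = 0.00181) and mivebresib (-0.36, adjusted p = 0.00783).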
